A study of Mus musculus with 8 samples.

Results

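The transcripts of 10 genes for storage, polyadenylation and delayed translation of germ cell mRNA were followed in Hr6b knockout and wild type spermatids and spermatocytes: Ybx2, Ybx3 (also named Csda), Dazl, Boll, Papolb, Cpeb1, Pabpc1, Paip2, Eif4g3 and Tarbp2. They were taken by gene symbol from the platform annotation, and they cover 21 of the 45037 probe sets tested (10 of 18193 genes with a probe set of their own). Hr6b, whose current symbol is Ube2b, encodes a ubiquitin-conjugating enzyme, and the study asked how its loss changes transcription in male germ cells, above all from the X chromosome. RNA was measured on 8 Affymetrix mouse genome arrays, 2 for each of the 4 groups: round spermatids of Hr6b-/- males, round spermatids of Hr6b+/+ males, late spermatocytes of Hr6b-/- males and late spermatocytes of Hr6b+/+ males. The knockout lacks Hr6b in every cell of the animal. All males were of 4 to 5 weeks on an FVB background and came from crosses set up in parallel. The fractions were enriched by sedimentation and a Percoll gradient, so each array measured a mixture of cells, and fewer cells of a type and less RNA per cell cannot be told apart. Replicates are separate batches of cells with the number of mice not given. The p-values below rest on the spread between the 2 batches of a group, pooled over the 4 groups and moderated by that of all probe sets. They cover this spread between batches and no more, and it may be technical.

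Male germ cells transcribe many mRNAs long before they translate them. Such mRNAs are held in ribonucleoprotein particles by Y-box proteins, and their poly(A) tails are lengthened or shortened before they reach ribosomes. The poly(A)-binding protein on the tail contacts the scaffold eIF4G on the cap complex, and this contact favours initiation. Proteins of the DAZ family bind the untranslated end of specific mRNAs, and cytoplasmic polyadenylation is directed by CPEB proteins and, in the testis, by a poly(A) polymerase of its own. In spermatids this delay is best known for the protamine mRNAs, which are stored until the nucleus elongates.

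The signal is the value on the linear scale, in array units, and levels of different probe sets are not compared. The main probe set of a gene is the one with the highest mean log2 value over the 8 arrays. A probe set was called higher or lower at an adjusted p under 0.05 in limma, with the Benjamini-Hochberg adjustment over all 45037 probe sets, and every adjusted p below is of this kind. The test is two-sided. With 2 arrays against 2, an exact permutation test cannot give a p below 0.333. The 2 arrays of each group correlated across probe sets, which are not replicates of anything, at r = 0.995 to 0.997. For Hr6b (Ube2b) itself, the brightest probe set gave a mean signal of 1006 ± 78.1 for knockout spermatids, 4606 ± 8.47 for wild type spermatids, 828 ± 6.72 for knockout spermatocytes and 3102 ± 349 for wild type spermatocytes (SD, n = 2 each). The haploid markers followed the labelled cell types, and the meiotic ones did so in part. Of 35 haploid markers, 35 were called higher in wild type spermatids than in wild type spermatocytes and 34 in the knockout, with 0 lower. Of 27 meiotic markers, 16 were called lower in spermatids of each genotype, with 4 called higher in wild type and 5 in the knockout. Summed over 35 haploid markers, the signal was 395804 to 401076 in knockout spermatids, 318398 to 327673 in wild type spermatids, 60026 to 73759 in knockout spermatocytes and 32622 to 41471 in wild type spermatocytes. Summed over 27 meiotic markers, it was 96987 to 99946, 107246 to 107544, 144812 to 153475 and 147241 to 155098 in the same order of groups. Both spermatid fractions also held less summed signal of Sertoli cell markers (1939 to 2418 on the 4 arrays, against 9250 to 11803 on spermatocyte arrays, over 21) and of spermatogonial markers (6217 to 7369 against 14479 to 16948, over 18). Gene by gene the spermatogonial list was mixed, with 4 called higher and 7 lower in wild type spermatids, and 9 and 5 in knockout spermatids (median log2 fold change -0.19 and 0.32). Sertoli cell markers had 3 higher and 12 lower, and 6 and 11. Leydig, peritubular and macrophage markers, summed over 18, went the other way, with 1252 to 1373 on spermatid and 980 to 1188 on spermatocyte arrays. The part of these cells in differences between the fractions was not tested.

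More member probe sets were called between the cell types than between the genotypes, and the same was true of all probe sets. In wild type spermatids against wild type spermatocytes, 5 of the 21 member probe sets were called higher and 9 lower (14 in all), where 26.0% of all probe sets were called higher and 27.3% lower (53.3% in all). In knockout spermatids against knockout spermatocytes, 3 were called higher and 10 lower, against 34.2% and 28.7% of all probe sets (63.0% in all). Of the 17597 probe sets with a signal of at least 100 on at least 4 arrays, 14898 were called in wild type and 15303 in the knockout. Of the 18 member probe sets among them, 12 and 11 were called. Without regard to the test, in wild type 5 member probe sets had both spermatid arrays above both spermatocyte arrays and 10 had both below (44.5% and 33.4% of all probe sets), and in the knockout 5 and 15 (49.3% and 34.0%). The median log2 fold change of the members was -0.06 in wild type and -0.38 in the knockout, and over all probe sets 0.10 and 0.14. Knockout and wild type differed less: in spermatids no member was called higher and 1 lower, where 4.83% and 9.63% of all probe sets were called (14.5% in all). In spermatocytes limma called 0 of the 21, where 1.18% of all probe sets were called higher and 0.413% lower (1.59% in all). At an unadjusted p under 0.05 there were 5 of the 21, where 4976 of the 45037 were under it. The plot of signals by array shows each main probe set.

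**Figure D1:**
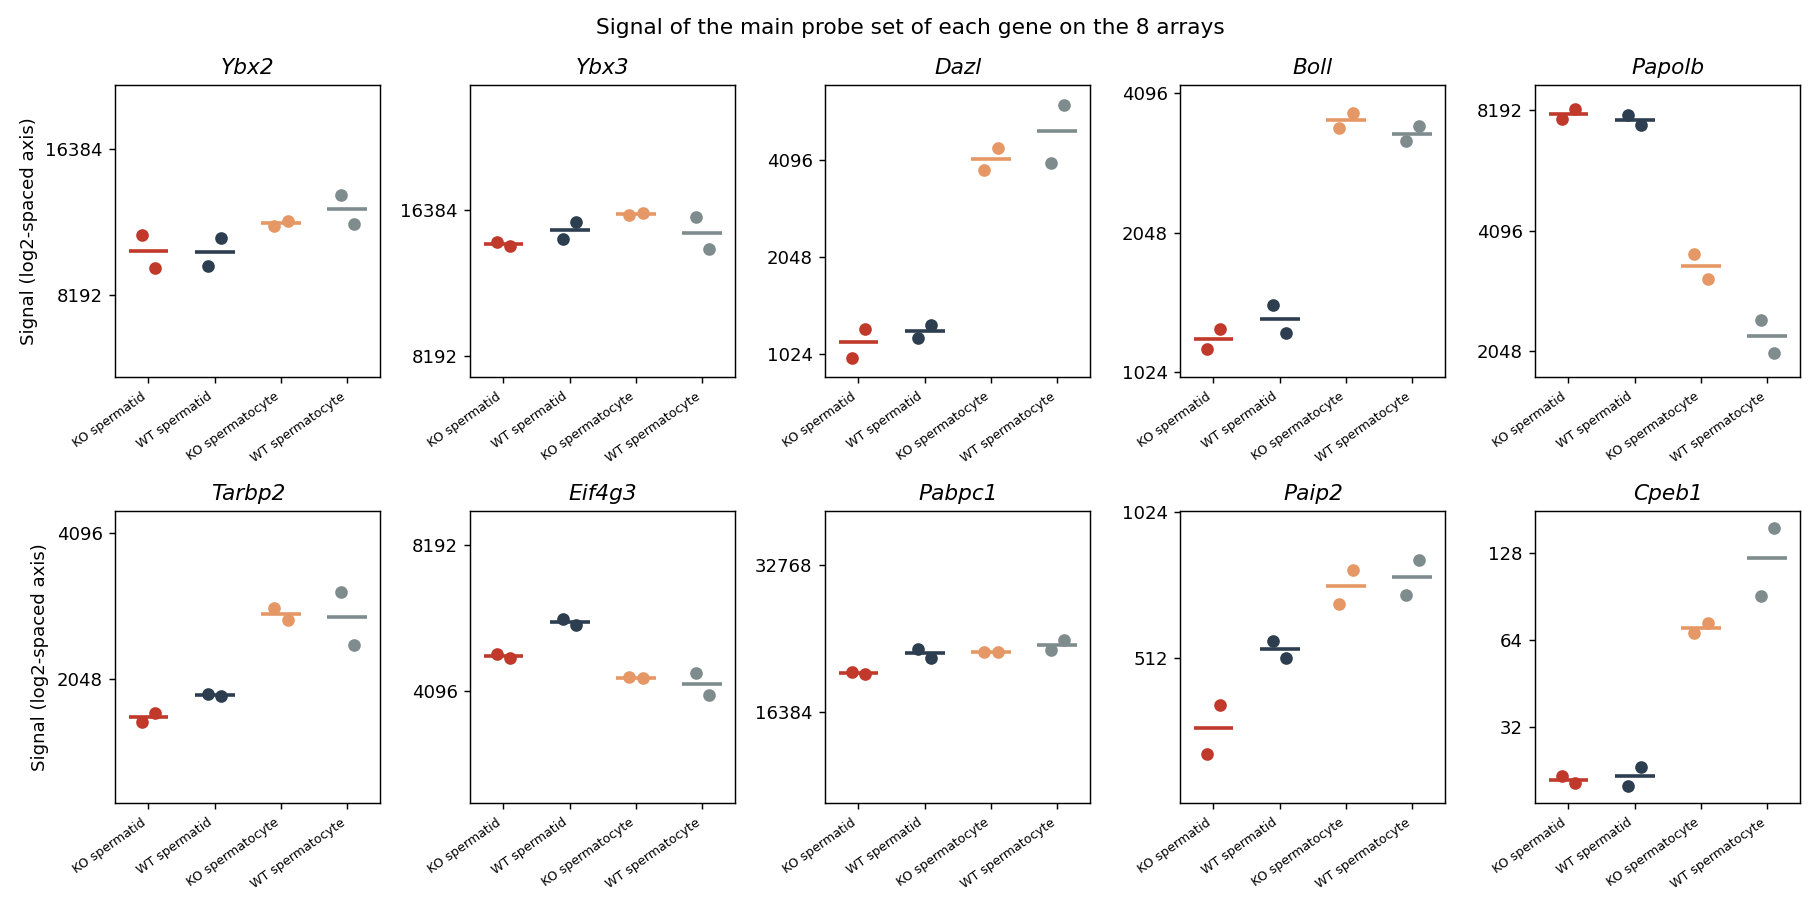
Signal of the main probe set of each of the 10 genes on the 8 arrays, on a log2-spaced axis, with a point for each array and a bar at the arithmetic mean of the 2 arrays of a group (KO, Hr6b knockout; WT, wild type). In both genotypes Dazl, Boll, Tarbp2, Paip2 and Cpeb1 had lower signals in spermatids than in spermatocytes and Papolb higher ones, while Ybx2, Ybx3 and Pabpc1 stayed within a narrow range on all arrays.

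The Y-box genes were called in no comparison. YBX2 (MSY2) is the germ cell Y-box protein that packages stored mRNA, and its single probe set had a signal of 10865 and 9324 in knockout spermatids, 9388 and 10700 in wild type spermatids, 11371 and 11607 in knockout spermatocytes and 13158 and 11461 in wild type spermatocytes. All 4 spermatid arrays lay below all 4 spermatocyte arrays, but the log2 fold change of spermatids over spermatocytes was only -0.29 in wild type (95% interval -0.59 to 0.0003, adjusted p = 0.0862) and -0.19 in the knockout (-0.48 to 0.10, adjusted p = 0.228). Between knockout and wild type, Ybx2 had a log2 fold change of 0.01 in spermatids (-0.29 to 0.30) and -0.10 in spermatocytes (-0.39 to 0.20).

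YBX3 (MSY4 in the mouse) is the related Y-box protein that is also made outside the germ line. Its main probe set had 14063 and 13796 in knockout spermatids, 14270 and 15502 in wild type spermatids, 16023 and 16126 in knockout spermatocytes and 15819 and 13630 in wild type spermatocytes. In wild type the arrays of the cell types overlapped, with a log2 fold change of 0.02 (95% interval -0.25 to 0.28), and in the knockout the spermatid arrays lay below the spermatocyte arrays by a log2 fold change of -0.21 (-0.47 to 0.06, adjusted p = 0.152). The other Ybx3 probe set, with signals of 13203 to 14820, had log2 fold changes between -0.13 and 0.01 in the 4 comparisons. The mean log2 value over the 8 arrays was 13.42 for Ybx2 and 13.86 for the main Ybx3 probe set, with the top of the scale on an array at 14.99 to 15.04, and how far differences are compressed near that end was not tested. Their relative Ybx1, which is made in most tissues, had a mean of 16116 in knockout spermatids, 17725 in wild type spermatids, 18724 in knockout spermatocytes and 18547 in wild type spermatocytes, and was called in no comparison.

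Dazl and Boll, the autosomal genes of the DAZ family, were both lower in spermatids on their main probe sets. DAZL binds mRNAs of germ cells from the gonocyte through meiosis and promotes their translation. The main Dazl probe set had 998 and 1230 in knockout spermatids, 1152 and 1258 in wild type spermatids, 3800 and 4447 in knockout spermatocytes and 4010 and 6080 in wild type spermatocytes. Each spermatid array was thus below each spermatocyte array, and the 2 wild type spermatocyte arrays stood farther apart than those of any other group. Dazl was 4.10-fold lower in wild type spermatids than in wild type spermatocytes (log2 fold change -2.04, standard error 0.19, adjusted p = 6.33e-06) and 3.71-fold lower in knockout spermatids than in knockout spermatocytes (-1.89, 0.19, adjusted p = 1.02e-05). The other Dazl probe set was lower by more, with log2 fold changes of -2.65 in wild type and -2.63 in the knockout. On that probe set both knockout arrays lay below both wild type arrays in each cell type, with 486 and 580 against 649 and 716 in spermatids and 2948 and 3653 against 3773 and 4824 in spermatocytes. The difference did not pass the test in either (log2 fold change -0.36, adjusted p = 0.181 in spermatids, and -0.38, adjusted p = 0.423 in spermatocytes).

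BOLL, the mammalian homologue of Drosophila boule, is required for spermatid development in the mouse. Its main probe set had 1146 and 1268 in knockout spermatids, 1428 and 1240 in wild type spermatids, 3449 and 3710 in knockout spermatocytes and 3230 and 3471 in wild type spermatocytes. The log2 fold change of spermatids over spermatocytes was -1.33 in wild type (standard error 0.12, adjusted p = 5.29e-06) and -1.57 in the knockout (0.12, adjusted p = 1.31e-06). Of the 3 other Boll probe sets, 1 was called lower in both genotypes, 1 in the knockout and 1 in neither. On 1427599_at the signal was 1208 and 1349 in knockout spermatids, 1414 and 1381 in wild type spermatids, 1916 and 1724 in knockout spermatocytes and 1107 and 1559 in wild type spermatocytes. Its wild type arrays overlapped between the cell types (log2 fold change 0.09, adjusted p = 0.665), while knockout spermatids were called lower than knockout spermatocytes (-0.51, adjusted p = 0.0185). On 1432530_s_at, whose suffix marks probes that can also match other transcripts, the log2 fold change was 0.20 in wild type and -0.43 in the knockout, neither called, and on 1432529_at it was -0.46 and -0.38, both called. The wild type call of 1432529_at was lost with both scalings (-0.15 and -0.16) and without replicate 2 of the wild type spermatocytes (adjusted p = 0.13) or either wild type spermatid array (0.0605 and 0.0607). The knockout decreases of 1427599_at and 1432529_at have the opposite sign when the arrays are scaled by cyclic loess (0.09 and 0.03) or to equal medians of expressed probe sets (0.02 and 0.15), and the call of 1427599_at is also lost without replicate 1 of the knockout spermatocytes (adjusted p = 0.108) or replicate 1 of the knockout spermatids (0.105). The knockout call of 1432529_at is lost without either knockout spermatocyte array (0.155 and 0.069) or replicate 2 of the knockout spermatids (0.158). In spermatocytes 1427599_at and 1432530_s_at had log2 fold changes of 0.47 and 0.48 for knockout over wild type, with adjusted p = 0.265 and 0.473, and the main one had 0.10.

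The polyadenylation genes went in opposite directions between the cell types. PAPOLB (TPAP) is the testis-specific cytoplasmic poly(A) polymerase that mouse spermatids need to complete spermiogenesis. Its main probe set had 7804 and 8250 in knockout spermatids, 7970 and 7511 in wild type spermatids, 3570 and 3104 in knockout spermatocytes and 2450 and 2019 in wild type spermatocytes. Spermatid arrays lay above all spermatocyte arrays, and in spermatocytes both knockout arrays lay above both wild type arrays. Papolb was 3.48-fold higher in wild type spermatids than in wild type spermatocytes (log2 fold change 1.80, standard error 0.13, adjusted p = 8.91e-07) and 2.41-fold higher in knockout spermatids than in knockout spermatocytes (1.27, 0.13, adjusted p = 1.25e-05). Between knockout and wild type spermatocytes its log2 fold change was 0.58 (95% interval 0.29 to 0.88, adjusted p = 0.0717), just outside the threshold, and it was called with dim probe sets filtered out (adjusted p = 0.0468), with an intensity trend in the variance (0.00558) and without replicate 1 of the wild type spermatocytes (0.0399). The haploid markers also had a higher summed signal on the knockout spermatocyte arrays (given above), with 20 of the 35 called higher, 0 lower and a median log2 fold change of 1.38, and their part in the Papolb value was not tested.

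The other Papolb probe set had 3349 and 3377 in knockout spermatids, 4748 and 4133 in wild type spermatids, 3257 and 2986 in knockout spermatocytes and 2880 and 2447 in wild type spermatocytes. It was higher in wild type spermatids than in wild type spermatocytes (log2 fold change 0.74, adjusted p = 0.000634), whereas the knockout cell types gave 0.11 (95% interval -0.18 to 0.40, adjusted p = 0.479). Knockout spermatids lay below wild type spermatids by -0.40 (adjusted p = 0.069), while the main probe set gave 0.05 there (-0.24 to 0.35). The knockout effect in spermatids minus that in spermatocytes was -0.63 on this probe set and -0.53 on the main one (adjusted p = 0.0793 and 0.135).

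CPEB1 binds the cytoplasmic polyadenylation element and both represses and activates mRNAs that carry it. Its probe set had a low signal, with 21.6 and 20.5 in knockout spermatids, 20.1 and 23.3 in wild type spermatids, 67.8 and 73.1 in knockout spermatocytes and 90.8 and 156 in wild type spermatocytes. Only the wild type spermatocytes had a mean above 100, at 123, and their 2 arrays were far apart. Cpeb1 was 5.51-fold lower in wild type spermatids than in wild type spermatocytes (log2 fold change -2.46, standard error 0.21, adjusted p = 3.07e-06) and 3.35-fold lower in knockout spermatids than in knockout spermatocytes (-1.74, adjusted p = 4.17e-05). Its mean log2 values, 4.39 for knockout and 4.43 for wild type spermatids, were below the median of all probe sets on the spermatid arrays (5.49 to 5.55). The values used carry no detection call, so Cpeb1 may not have been above background in spermatids and the folds between cell types are then lower bounds. In spermatocytes both knockout arrays lay below both wild type arrays, with a log2 fold change of -0.76 (95% interval -1.23 to -0.28, adjusted p = 0.151), which ran to -1.15 and was called without replicate 1 of the wild type spermatocytes (adjusted p = 0.00346) and came to -0.37 without replicate 2 (adjusted p = 0.386).

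The paralogs of these enzymes and binding proteins also went in either direction. Of the poly(A) polymerases, the ubiquitous Papola had a mean of 2384 in wild type spermatids and 1281 in wild type spermatocytes (log2 fold change 0.90, adjusted p = 0.000114), and Papolg had 54.7 and 1026 (-4.23, adjusted p = 2.76e-09). Of the CPEB family, Cpeb3 was higher in wild type spermatids, with 856 against 121 in wild type spermatocytes (2.82, adjusted p = 1.31e-08), and Cpeb2 and Cpeb4 were lower by -3.66 and -1.88 on the log2 scale (adjusted p = 1.86e-08 and 2.73e-07).

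The promoter sequences of Papolb, Dazl and Cpeb1 are shown because their main probe sets were called at a difference of more than 3-fold between wild type spermatids and spermatocytes, 1 higher and 2 lower, a choice made after the values were seen. Each is the 250 bases before an annotated start of transcription in RefSeq (mouse build GRCm38.p6), read 5′ to 3′ in the direction of transcription. Capitals mark matches on either strand to the letters CCAAT, which are known as a CCAAT box. They also mark the letters TGACG, a partial form of the cAMP response element that CREM binds in spermatids. The last letters marked are TATAAA, the core of a TATA box. The Papolb sequence lies at chr5:142530077-142530326 on the minus strand and holds a CCAAT box that begins 73 bases before the start. The Dazl sequence lies at chr17:50293621-50293870 on the minus strand, with a CCAAT box 47 bases and a TGACG 34 bases before the start, both read on the opposite strand. The Cpeb1 sequence lies at chr7:81454759-81455008 on the minus strand, before a start inside the span of the gene, with a TGACG 52 bases and a TATA box 30 bases before it, both read on the opposite strand.
Papolb: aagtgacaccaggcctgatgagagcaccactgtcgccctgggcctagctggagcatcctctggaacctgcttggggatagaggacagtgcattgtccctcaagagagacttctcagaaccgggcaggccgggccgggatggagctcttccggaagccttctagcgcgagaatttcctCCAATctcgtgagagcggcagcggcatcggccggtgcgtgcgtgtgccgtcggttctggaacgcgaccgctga
Dazl: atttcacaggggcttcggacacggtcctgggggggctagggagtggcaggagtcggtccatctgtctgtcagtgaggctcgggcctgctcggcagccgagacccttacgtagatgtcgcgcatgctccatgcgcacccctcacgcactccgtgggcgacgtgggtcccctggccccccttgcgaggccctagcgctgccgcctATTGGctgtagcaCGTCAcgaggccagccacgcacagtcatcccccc
Cpeb1: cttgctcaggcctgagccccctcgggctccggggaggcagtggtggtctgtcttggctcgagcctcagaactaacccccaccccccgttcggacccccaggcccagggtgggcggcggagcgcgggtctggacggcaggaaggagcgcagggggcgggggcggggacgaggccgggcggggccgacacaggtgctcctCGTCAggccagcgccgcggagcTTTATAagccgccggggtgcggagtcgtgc
Among all 32817 such windows, 33.8% hold CCAAT, 17.7% TGACG, 12.4% TATAAA and 1.55% the complete response element TGACGTCA, which is in no window of the 8 members matched by symbol. The partial element is in windows of Dazl, Cpeb1 and Tarbp2. The matches are a description of the letters, and binding was not measured. Pabpc1 and Paip2 were not matched.

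Of the genes of poly(A) binding and initiation, PABPC1 is the main cytoplasmic poly(A)-binding protein, and its main probe set had a mean log2 value of 14.38, near the top of the scale. It had 19750 and 19567 in knockout spermatids, 22055 and 21151 in wild type spermatids, 21686 and 21689 in knockout spermatocytes and 21993 and 23042 in wild type spermatocytes, and was called in no comparison (log2 fold changes of -0.14 to -0.05). The other Pabpc1 probe set, 1453840_at, had 38.8 and 51.9 in knockout spermatids, 54.1 and 61.6 in wild type spermatids, 544 and 611 in knockout spermatocytes and 590 and 629 in wild type spermatocytes. It was 10.6-fold lower in wild type spermatids than in wild type spermatocytes (log2 fold change -3.40, standard error 0.15, adjusted p = 2.28e-08) and 12.9-fold lower in knockout spermatids than in knockout spermatocytes (-3.68, adjusted p = 1.44e-08). Its mean log2 values, 5.49 for knockout and 5.85 for wild type spermatids, were close to the median of all probe sets on the spermatid arrays (5.49 to 5.55), so that these folds too may be lower bounds. Which part of the transcript each probe set reads was not analysed here. The 3′ minus 5′ log2 values of the actin control probe sets, a measure of RNA integrity, were 0.66 to 0.95 on spermatid arrays and 1.24 to 1.75 on spermatocyte arrays, and those of Gapdh 0.82 to 1.03 and 0.16 to 0.80. Their part in the differences between cell types was not tested.

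The testis paralogs of Pabpc1 differed from it and from each other. Pabpc2 was higher in wild type spermatids than in wild type spermatocytes, with means of 15328 and 8985 (log2 fold change 0.77, adjusted p = 0.00015), and Pabpc6 was lower, with 5699 and 8589 (-0.60, adjusted p = 0.00154). Pabpc6 was also lower in knockout than in wild type spermatids, with 3936 and 5699 (-0.53, adjusted p = 0.0151), a call that was lost with both scalings (adjusted p = 0.102 and 0.0754) and without replicate 1 of the knockout or of the wild type spermatids (0.0993 and 0.106). These copies are similar in sequence, and how far their probes share targets was not examined. A further paralog, Pabpc4, had means of 180.6 in wild type spermatids and 137.3 in wild type spermatocytes (log2 fold change 0.40, adjusted p = 0.0258). In the knockout it had 214.5 and 126.4 (0.76, adjusted p = 0.000485). Its wild type call was lost without replicate 1 of the wild type spermatocytes or either wild type spermatid array.

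**Figure D2:**
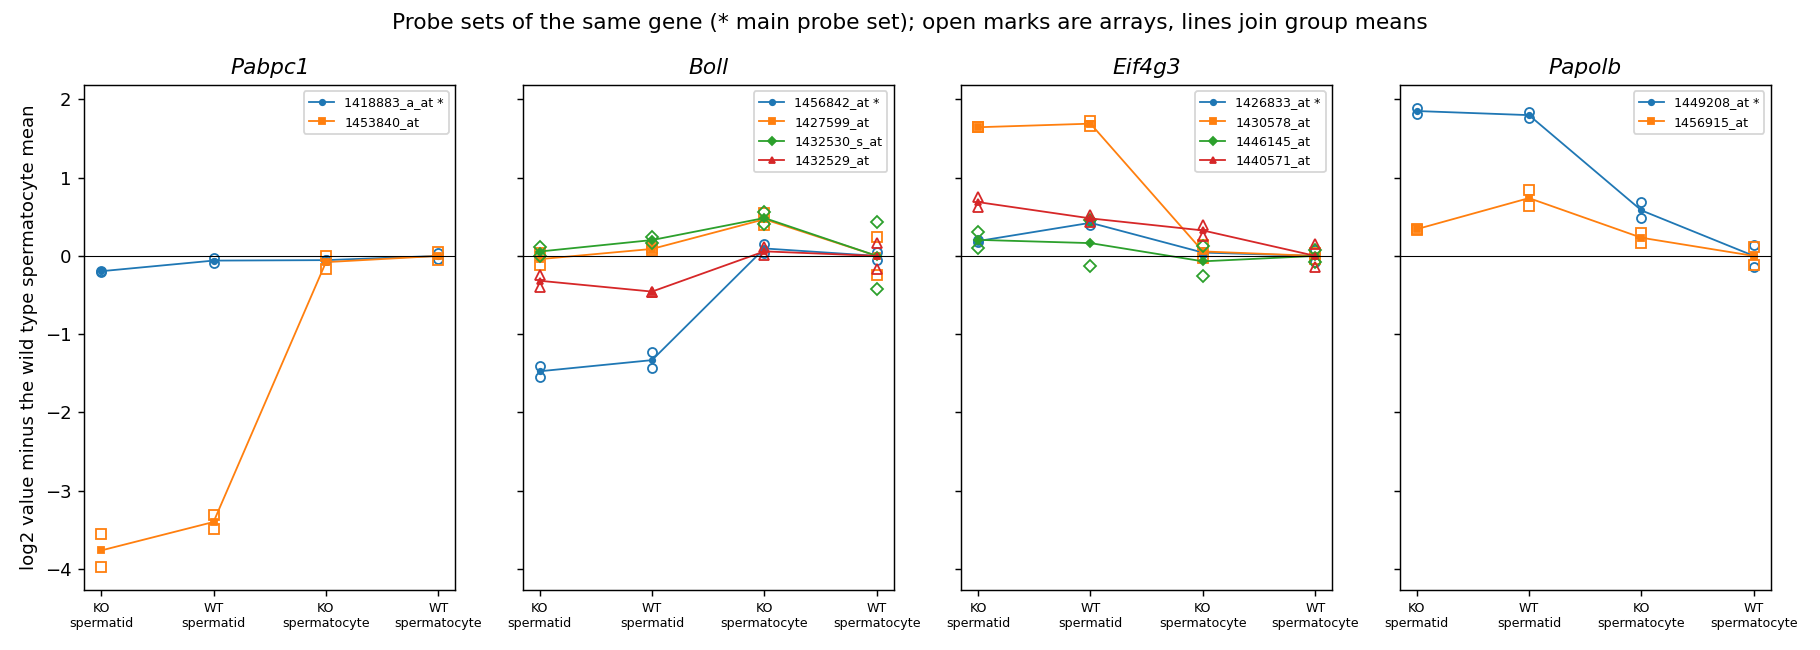
The log2 value of each probe set of Pabpc1, Boll, Eif4g3 and Papolb minus its own mean in wild type spermatocytes (at 0), by group. Open marks are single arrays, lines join the means of the 2 arrays, and an asterisk marks the main probe set. In wild type spermatids, 1453840_at of Pabpc1 stood at -3.40 and the main probe set at -0.06, and 1430578_at of Eif4g3 stood at 1.69 and its main probe set at 0.42.

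PAIP2 binds PABPC1 and takes it off the poly(A) tail, which lowers translation, and in the mouse it is needed for spermatids to complete translation of stored mRNA. It was the single member called between knockout and wild type. Its probe set had 325 and 410 in knockout spermatids, 555 and 513 in wild type spermatids, 660 and 777 in knockout spermatocytes and 689 and 813 in wild type spermatocytes. Both knockout spermatid arrays lay below both wild type ones, and the spermatocyte arrays of the genotypes overlapped. Paip2 was 1.46-fold lower in knockout than in wild type spermatids (log2 fold change -0.55, 95% interval -0.89 to -0.21, standard error 0.15, adjusted p = 0.0387). The fold change was -0.06 in spermatocytes (-0.40 to 0.27), and the difference between the cell types, -0.48, was not called (adjusted p = 0.221). The spermatid call rests near the threshold. It was lost with cyclic loess (-0.30, adjusted p = 0.257), with equal expressed medians (-0.34, 0.106), without replicate 1 of the knockout spermatids (-0.38, 0.236), with wild type spermatid replicate 1 (-0.49, 0.172) or replicate 2 (-0.60, 0.1) left out, and without either knockout spermatocyte array (-0.55, 0.0523 each).

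Between cell types Paip2 was lower in spermatids in both genotypes, by a log2 fold change of -0.49 in wild type (adjusted p = 0.02) and -0.97 in the knockout (adjusted p = 0.000264). The wild type call was lost with both scalings (-0.06 and -0.19) and without replicate 2 of the wild type spermatocytes (adjusted p = 0.125) or of the wild type spermatids (0.101), and the knockout call with cyclic loess (-0.28, adjusted p = 0.148). Its paralog Paip2b moved the other way, with 1088 in wild type spermatids and 715 in wild type spermatocytes (0.61, adjusted p = 0.00395). Paip1, which binds PABPC1 and stimulates translation, had 40.0 and 849 (-4.41, adjusted p = 4.79e-09), the largest decrease among the other genes listed.

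EIF4G3 is a scaffold of the cap-binding complex, and the mouse gene is required for meiosis in males. Its main probe set had 4879 and 4790 in knockout spermatids, 5775 and 5594 in wild type spermatids, 4373 and 4359 in knockout spermatocytes and 4467 and 4022 in wild type spermatocytes. It was higher in wild type spermatids than in wild type spermatocytes (log2 fold change 0.42, standard error 0.11, adjusted p = 0.00827, and 0.0578 without replicate 2 of the wild type spermatocytes). The knockout cell types differed by 0.15 (95% interval -0.10 to 0.39, adjusted p = 0.268), a value that both scalings raised past the threshold (0.60 and 0.67). Knockout spermatid arrays lay below wild type ones by -0.23 (adjusted p = 0.202, and 0.0433 with an intensity trend). The paralog Eif4g2 had a mean of 8073 in knockout spermatids, 9251 in wild type spermatids, 9273 in knockout spermatocytes and 9870 in wild type spermatocytes. Eif4g2 was called in no comparison, and Eif4g1 had no probe set under its symbol alone. A further Eif4g3 probe set, 1430578_at, had 174 and 174 in knockout spermatids, 183 and 176 in wild type spermatids, 61.4 and 54.7 in knockout spermatocytes and 57.1 and 54.3 in wild type spermatocytes, and was 3.23-fold higher in wild type spermatids than in wild type spermatocytes (1.69, adjusted p = 4.14e-07). The remaining pair was below 100 in every group mean. Of this pair 1440571_at was called higher in spermatids of both genotypes (0.48 and 0.36, adjusted p = 0.011 and 0.0351), and 1446145_at was not called. The wild type call of 1440571_at was lost with cyclic loess (adjusted p = 0.0702) and without replicate 2 of the wild type spermatocytes (0.0898) or of the wild type spermatids (0.0616), and its knockout call with cyclic loess (0.761), with an intensity trend (0.0514) and without any 1 of the 4 knockout arrays (0.0576 to 0.179).

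TARBP2 binds double-stranded RNA, partners Dicer and is needed in mouse spermatids for translation of protamine mRNA. Its main probe set had 1668 and 1742 in knockout spermatids, 1907 and 1886 in wild type spermatids, 2870 and 2710 in knockout spermatocytes and 3094 and 2408 in wild type spermatocytes. Every spermatid array lay below every spermatocyte array, with a log2 fold change of -0.53 in wild type (standard error 0.13, adjusted p = 0.00742) and -0.71 in the knockout (0.13, adjusted p = 0.00103). Both calls were lost with each scaling (-0.23 in wild type with either, and -0.15 and -0.18 in the knockout), and the wild type one without replicate 1 of the wild type spermatocytes (adjusted p = 0.0597). The other probe set, whose suffix marks probes shared with other transcripts, gave -0.46 and -0.63, called in both genotypes (adjusted p = 0.0256 and 0.00422). These calls too were lost with each scaling, and the wild type one with the wild type arrays fitted alone (adjusted p = 0.0597) and without replicate 1 of the wild type spermatocytes (0.197) or either wild type spermatid array (0.117 and 0.0558). Of the other double-stranded RNA-binding genes, the germ cell gene Strbp was lower in wild type spermatids than in wild type spermatocytes (-0.84, adjusted p = 0.000152) and Adad1 was higher (1.16, adjusted p = 4.45e-06), while Prkra, a paralog of Tarbp2, had 0.32 (adjusted p = 0.0753).

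Comparing the genotypes over all members, 13 of the 21 probe sets had both knockout spermatid arrays below both wild type ones and 2 had both above, where 27.4% and 28.1% of all probe sets did. Several of the 21 belong to the same gene, and among the 10 main probe sets 5 had both arrays below and 0 both above. Of these 10, 8 had a negative log2 fold change in spermatids. Over all probe sets the median was 0.02, and that of the 10 was -0.13. This median became 0.08 with cyclic loess and 0.08 with equal expressed medians, so the direction depends on the scaling. Expressed probe sets as a whole were lower in knockout spermatids, by a median log2 fold change of -0.16. These were the 15814 whose mean log2 value was at least that of a signal of 100. Of 27 meiotic markers 4 were called lower in knockout spermatids and 0 higher, with a median of -0.25. Over all probe sets 9.63% were called lower and 4.83% higher, and of the 17597 with a signal of at least 100 on at least 4 arrays, 4599 and 1383. Of 21 Sertoli cell markers 6 were called higher and 1 lower, with summed signals of 2342 to 2418 against 1939 to 1996 in wild type. Haploid markers had 7 of 35 called higher and 0 lower. Spermatogonial markers had 3 of 18 higher and 0 lower, and Leydig, peritubular and macrophage markers 2 of 18 higher and 1 lower. The part of these cell types in the members' values was not tested.

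In spermatocytes 5 of the 21 probe sets had both knockout arrays above both wild type ones and 3 had both below (19.7% and 21.7% of all probe sets), and the median of the 10 main probe sets was -0.01. The largest values were those of Papolb and Cpeb1 given above. The knockout effect did not differ between spermatids and spermatocytes by the test for any member: limma called 0 of 21, where 1.46% of all probe sets were called more positive and 3.14% more negative in spermatids (4.60% in all). At an unadjusted p under 0.05 there were 5, where 9967 of the 45037 (22.1%) were under it. Those 5 were both Papolb probe sets, 1427599_at of Boll (-0.60) and Paip2 (-0.48), all with a more negative knockout effect in spermatids, and Cpeb1 (0.72) with a more positive one.

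**Figure D3:**
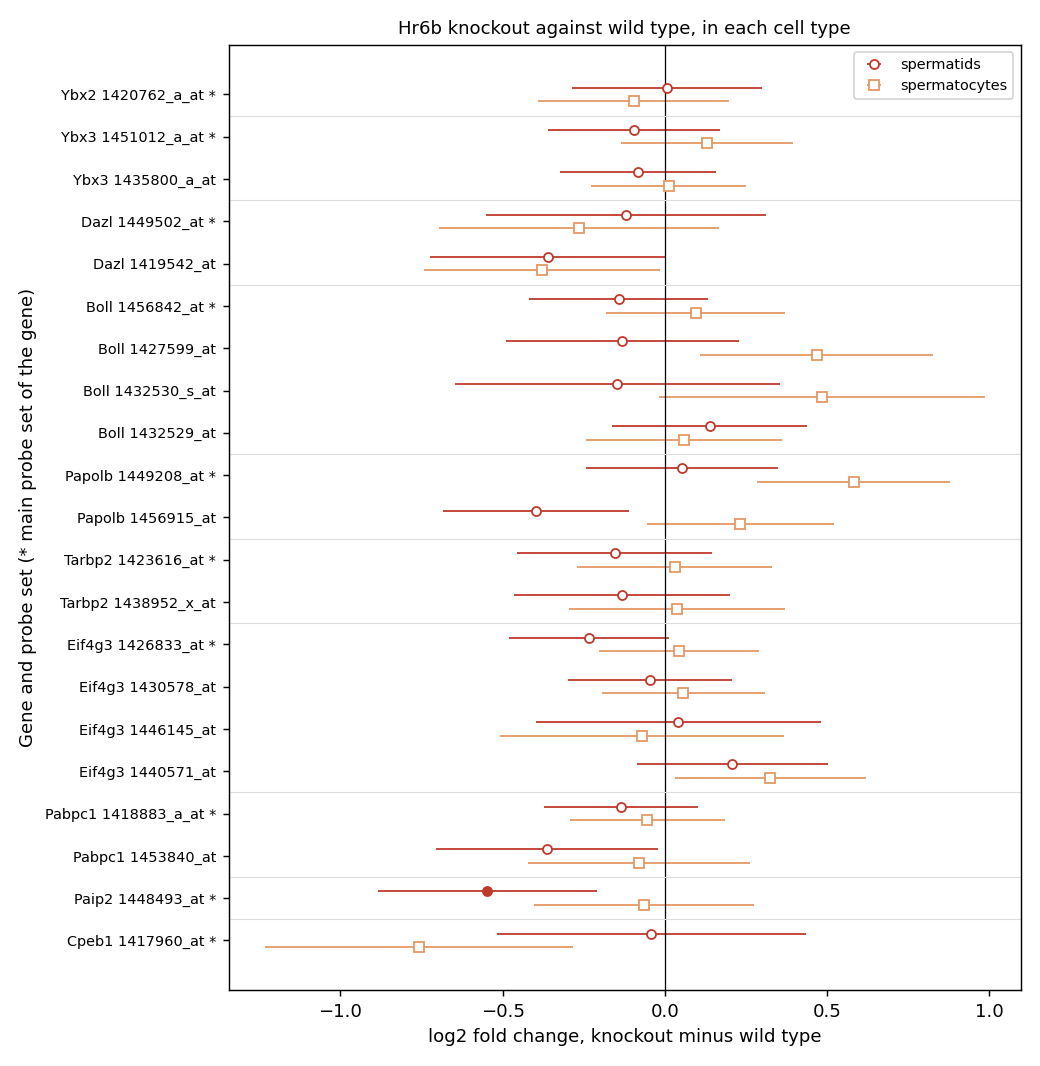
Log2 fold change of Hr6b knockout over wild type for the 21 probe sets, in spermatids (circles) and spermatocytes (squares), with the 95% interval from limma. The single filled mark is Paip2 in spermatids (-0.55), the only call at an adjusted p under 0.05, and the farthest from 0 in spermatocytes are Cpeb1 (-0.76) and the main Papolb probe set (0.58).

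To set the members beside the rest of their pathway, 3 lists of other genes were measured, with 95 of 103 listed genes present under a single symbol and 1 probe set each. Between wild type spermatids and wild type spermatocytes 28 were called higher and 55 lower, with a median log2 fold change of -0.60, where 26.0% and 27.3% of all probe sets were called. Of the 17597 probe sets with a signal of at least 100 on at least 4 arrays, 5922 were called higher and 8976 lower, with a median of -0.34. By list, the 95 genes gave 9 higher and 15 lower of 27 genes of polyadenylation and deadenylation, 9 and 16 of 28 of initiation and poly(A) binding, and 10 and 24 of 40 of mRNA storage and repression. With cyclic loess 32 of the 95 were called higher and 48 lower in all, and with equal expressed medians 34 and 48. The genes that were higher by most were Cstf2, which encodes a cleavage stimulation factor subunit (log2 fold change 4.96, standard error 0.13, adjusted p = 1.54e-09), Eif1ax, an initiation factor gene (4.03), Cpeb3 (2.82) and Eif2ak2, which encodes the kinase PKR (2.80). Cstf2 and Eif1ax are X-linked. Where a mean was below 100, as for Paip1 and Papolg in spermatids and Cstf2 and Eif2ak2 in spermatocytes, the size of the change may be a lower bound. After Paip1 and Papolg, the genes that were lower by most were Celf1, which encodes a regulator of mRNA decay and translation (-4.19), and Cpeb2 (-3.66).

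In spermatids, 5 of the 95 genes were called higher in the knockout and 18 lower, with a median log2 fold change of -0.19. Of all probe sets 4.83% were called higher and 9.63% lower. Of the 17597 with a signal of at least 100 on at least 4 arrays, 1383 were called higher and 4599 lower, with a median of -0.15. The polyadenylation and deadenylation list held 10 of the 18 (of 27, with 3 higher), the initiation list 3 (of 28, with 2 higher) and the storage list 5 (of 40, with 0 higher, while 3 of its members were called higher with equal expressed medians and 2 with cyclic loess). Lower by most were Cnot6l, a deadenylase gene of the CCR4-NOT complex, with a mean signal of 166 on knockout and 335 on wild type spermatid arrays (-1.02, standard error 0.16, adjusted p = 0.00345), the P-body genes Lsm14a (-0.98) and Ddx6 (-0.97), and Rbm44, a germ cell RNA-binding protein gene (-0.78). Cpeb2 and Cpeb4 were lower by -0.75 and -0.53 (adjusted p = 0.0127 and 0.0159), calls that were lost with cyclic loess (0.0876 and 0.164) and without replicate 1 of the knockout spermatids (0.093 and 0.0972) or of the wild type spermatids (0.0688 and 0.109). The Cpeb2 call was also lost without replicate 2 of the wild type spermatids (0.0633), and the Cpeb4 call with equal expressed medians (0.0819). Higher in the knockout were Eif1ax, with 3979 against 1839 in wild type (1.11, standard error 0.15, adjusted p = 0.00158), Cpeb3, with 1706 against 856 (0.99, adjusted p = 0.000877), Eif4a2, a helicase gene of the cap complex (0.62), Sympk, which encodes a scaffold of the 3′ processing complex (0.45), and Cstf2 (0.45, adjusted p = 0.044). The Eif4a2 call was lost without replicate 2 of the knockout spermatids (adjusted p = 0.0829) or either wild type spermatid array (0.052 and 0.085), and the Sympk and Cstf2 calls without any 1 of the 4 spermatid arrays (0.0737 to 0.2 and 0.0577 to 0.233), without either knockout spermatocyte array (0.0582 and 0.0705) or with the spermatid arrays fitted alone (0.0648 and 0.0686). Strbp, with 2013 on knockout and 2648 on wild type spermatid arrays, was just outside the threshold (-0.40, adjusted p = 0.0539).

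The number of lower genes among the 95 in knockout spermatids depends on the arrays and on the scaling. The 18 became 5 without replicate 1 of the knockout spermatids, 5 without replicate 1 and 10 without replicate 2 of the wild type spermatids, and 11 with the spermatid arrays fitted alone. With cyclic loess 8 genes were called higher and 5 lower, with equal expressed medians 12 and 8, and the median was 0.03 and 0.02. With an intensity trend 5 were called higher and 30 lower.

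In spermatocytes 3 of the 95 were called higher in the knockout and 2 lower, with a median of 0.01, where 1.18% and 0.413% of all probe sets were called. None of the 27 polyadenylation and deadenylation genes was called. Ago1, an Argonaute gene, had a mean of 136 in knockout and 63.7 in wild type spermatocytes (log2 fold change 1.10, adjusted p = 0.00431), Eif2ak2 had 87.0 and 49.0 (0.83, adjusted p = 0.0271), and Eif1ax had 186 and 114 (0.72, adjusted p = 0.0491). Fmr1, an X-linked gene for a translational repressor, had 43.1 and 97.7 (-1.18, adjusted p = 0.00532), and Dicer1, which encodes the enzyme that Tarbp2 serves, had 118 and 192 (-0.70, adjusted p = 0.0329). Eif2ak2 and Fmr1 had means below 100 in both genotypes. In wild type, Eif1ax, Eif2ak2 and Fmr1 were higher in spermatids than in spermatocytes (4.03, 2.80 and 1.17), and Ago1 and Dicer1 lower (-0.68 and -1.78). The haploid markers had a higher summed signal on the knockout spermatocyte arrays (given above), and their part in these values was not tested. With the spermatocyte arrays fitted alone 0 of the 95 were called. Fewer calls were also made without replicate 1 of the knockout spermatocytes (0 higher and 1 lower), or without replicate 2 of the knockout or of the wild type spermatocytes (1 and 1 each), without either wild type spermatid array (1 and 2 each), and with cyclic loess, with equal expressed medians or without either knockout spermatid array (2 and 2 each). The Eif1ax call was lost in 11 of 14 alternatives (adjusted p = 0.0535 to 0.393). The knockout effect was called different between the cell types for 6 of the 95, where 4.60% of all probe sets were called. With a signal of at least 100 on at least 4 arrays required, 2593 of 17597 probe sets were called. The effect was more negative in spermatids for Eif2ak2, Ago1, Lsm14a, Rbm44 and the deadenylase gene Cnot6, and more positive for Fmr1 (adjusted p = 0.0154 to 0.0491). Cnot6 was named after its value was seen.

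**Figure D4:**
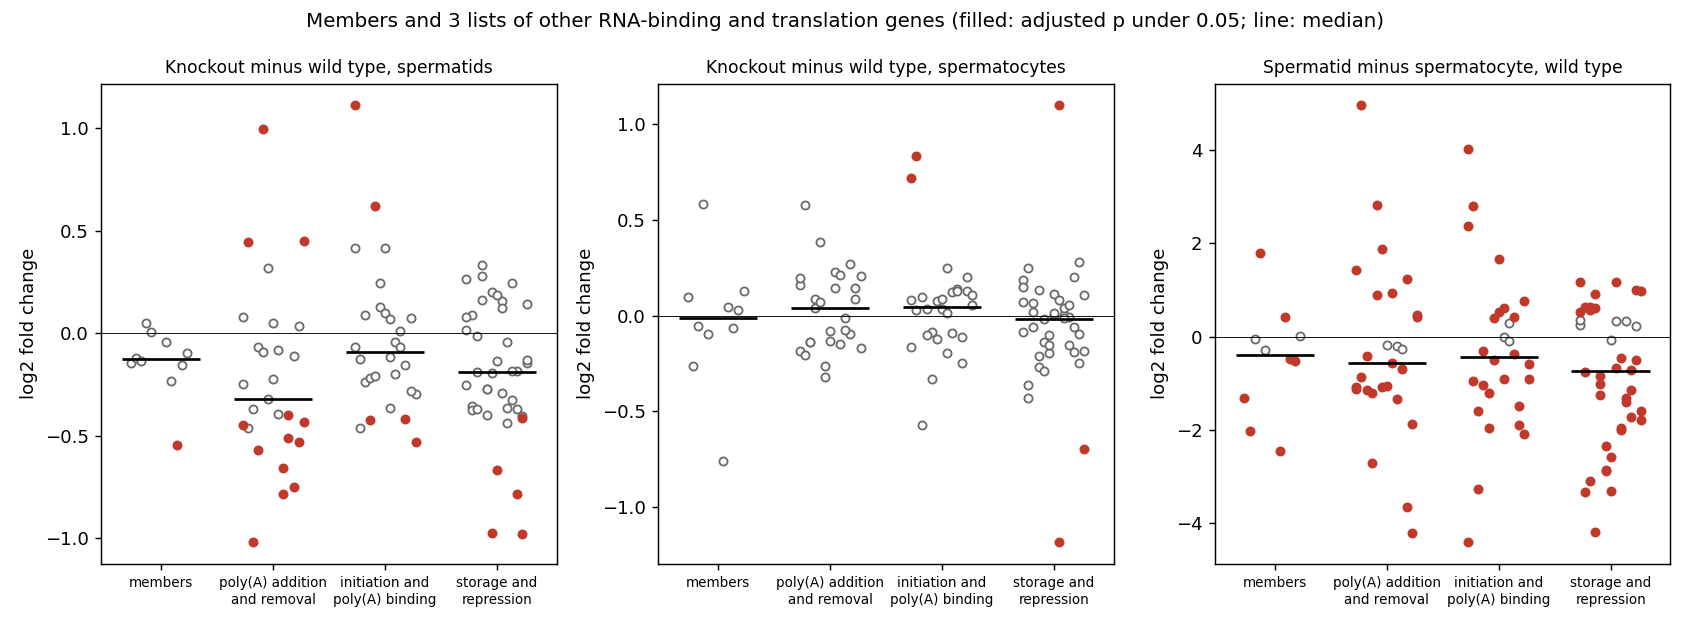
Log2 fold changes of the 10 main member probe sets and of the 3 lists of other genes, for knockout over wild type in spermatids and in spermatocytes and for wild type spermatids over wild type spermatocytes. Each point is 1 gene, filled where called at an adjusted p under 0.05, and the bar is the median, which lies at -0.13, -0.32, -0.09 and -0.19 from left to right in the first panel; the vertical scale of the third panel is wider.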

How the data were processed

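The authors hybridised RNA of the 4 groups to mouse genome expression arrays and deposited log2 values from RMA, run in R with the limma package per their methods, whose versions are not given in the sources used here. RMA corrects the background, forces a common distribution on the arrays and summarises the probes of a probe set, so a shift shared by most transcripts is removed, and the number of arrays limits the precision. The deposited log2 values were used without further normalization. Of 45101 probe sets, 64 controls were left out. The platform annotation gave 1 gene for 34945, several for 932 and none for 9160, and symbols were updated through RefSeq. With limma 3.58.1 in R 4.3.3, the 8 arrays entered 1 linear model with 4 group means (4 residual and 5.85 prior degrees of freedom), and the Benjamini-Hochberg adjustment covered 45037 probe sets. The methods of the study state linear models with empirical Bayes for these arrays.

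The members and lists were chosen with earlier results of these data known. Named genes were all members, their paralogs and, from each comparison of the other genes, up to 4 called higher and 4 called lower by most, at the probe set with the highest mean. Each marker or other gene was read at that probe set too. Tried as alternatives were cyclic loess and arrays shifted to equal medians of expressed probe sets, whose mean log2 value was at least that of a signal of 100. Dim probe sets were also filtered out, by requiring a signal of at least 100 on at least 4 of 8 arrays. Further alternatives were an intensity trend in the variance, the replicate number as a block and only the groups compared. Each array was also left out in turn, where the lone array of a group is assumed to vary like the other groups. The code was tested on simulated data. Replicate numbers recur in each group, but nothing says that they mark a shared batch, and the deviations of same-numbered arrays correlated at -0.13 to 0.03, so arrays were not paired.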

Additional observations from a re-analysis of the deposited data

How the results depend on the processing

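Over the 64 fold changes of member probe sets tried, 776 of 879 alternative values kept their direction and their side of the threshold, 45 lost the call, 13 gained one and 45 changed sign, in 0 cases with a call both before and after. The calls between cell types held in every alternative run (for Cpeb1 all but the filter, which leaves it out) for Dazl, Cpeb1, the main Boll and Papolb probe sets, 1430578_at of Eif4g3 and 1453840_at of Pabpc1. In spermatids the number of members called between knockout and wild type was 0 with cyclic loess and with equal expressed medians, 2 with dim probe sets filtered out, 3 with an intensity trend and 0 to 1 with an array left out. In spermatocytes it was 1 with that filter, 1 with the trend and 0 to 2 with an array left out, and for the difference of knockout effects 1, 2 and 0 to 2. Between wild type cell types 10 to 15 member probe sets were called, and between knockout cell types 9 to 16. The split of higher and lower calls was 5 and 5 with cyclic loess and 8 and 5 with equal expressed medians in wild type, and 4 and 5, and 10 and 6, in the knockout. With equal expressed medians the median of all probe sets moved to 0.23 between genotypes in spermatids, and between the cell types to 0.39 in wild type and 0.67 in the knockout. The cause of these changes was not tested.

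The log2 fold changes below changed sign. Called in the main setting were those of 1427599_at (-0.51) and 1432529_at (-0.38) of Boll between knockout cell types and of Cnot6l between wild type cell types (-0.43). Between knockout and wild type spermatids they became, with cyclic loess and with equal expressed medians, 0.0798 and 0.12 for Ybx3, 0.12 and 0.09 for Dazl, 0.0936 and 0.0668 for Boll, 0.0815 and 0.0556 for Tarbp2 and 0.0182 and 0.0738 for Pabpc1, and with equal medians 0.17 for Cpeb1. Between wild type cell types equal medians gave 0.0028 for Ybx2 and 0.24 for Pabpc1. Between knockout cell types the same pair of scalings gave 0.12 and 0.34 for Ybx2 (adjusted p = 0.0495 in limma for equal medians), 0.0376 and 0.32 for Ybx3 (0.0391), 0.0204 and 0.38 for Pabpc1 (0.00814), 0.0928 and 0.0165 for 1427599_at of Boll, and 0.0322 and 0.15 for its 1432529_at. In the original direction, the intensity trend called Ybx3 (-0.21, adjusted p = 0.0153) and Pabpc1 (-0.14, 0.0125) between knockout and Ybx2 (-0.29, 0.0105) between wild type cell types, and Papolb for the difference of knockout effects (-0.53, 0.036). Equal medians called Ybx3 between wild type cell types (0.31, 0.0474), and Cpeb1 was called for the difference of knockout effects without replicate 1 of the wild type spermatocytes (1.11, 0.0171). For the difference of knockout effects, loess gave 0.0211 for Boll, 0.0737 for Tarbp2 and 0.10 for Pabpc1, and equal medians 0.0053 for Ybx3, 0.0457 for Tarbp2 and 0.15 for Pabpc1. Of the other genes, Cnot6l had 0.0147 with loess between wild type cell types.

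With 1 array left out, the values that changed sign ran, between knockout and wild type spermatids, from -0.10 to 0.12 for Ybx2, -0.27 to 0.0308 for Dazl and -0.15 to 0.0681 for Cpeb1. Between knockout and wild type spermatocytes they ran from -0.20 to 0.0034 for Ybx2, -0.56 to 0.036 for Dazl, -0.15 to 0.21 for Tarbp2, -0.033 to 0.12 for Eif4g3 and -0.18 to 0.0558 for Paip2. Between wild type cell types Ybx3 ran from -0.0889 to 0.13, and for the difference of knockout effects Ybx2 ran from -0.0081 to 0.21 and Dazl from -0.16 to 0.45.

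Over all probe sets, 6514 were called between knockout and wild type spermatids, 11036 with equal expressed medians (20.6% of them lower, against 66.6% in the main setting and 50.0% with cyclic loess) and 2588 to 7268 with an array left out. In spermatocytes 717 were called, 80 with the spermatocyte arrays fitted alone and 119 to 999 with an array left out. For the difference of knockout effects 2073 were called, 1197 with cyclic loess, 3241 with the trend and 228 to 2197 with an array left out. With the filter, which tests 17597 probe sets, 14898 were called between wild type and 15303 between knockout cell types. The replicate number as a block left the number of members called at 1 in spermatids, 0 in spermatocytes, 14 and 13 between the cell types and 0 for the difference, and called 6090, 686, 23610, 28028 and 1725 of all probe sets. The block cost the calls of Eif1ax in spermatocytes and of Sympk and Cstf2 in spermatids among the other genes named. A crossed pairing, tried after seeing the data because 2 correlations were below -0.1, called 1 member and 6892 probe sets between genotypes in spermatids, and 14 and 24355 between wild type cell types.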
